A study of Mus musculus with 22 samples.

Results

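Dietary nicotinamide was compared with no supplement in the kidneys of old mice. The comparison used 16 of the 22 libraries of the series, chosen by their labels: 8 kidneys of old mice given nicotinamide (NAM) and 8 kidneys of old mice without it. All 16 were male wild-type C57BL/6JRj mice of 21 months. Supplemented animals received NAM mixed into the diet for 14 weeks, at a dose of 200 mg per kg of body weight per day from food holding 1.6 g per kg. The other 6 libraries came from young mice of 4 months of the same strain and sex, without NAM. They entered the same statistical fit and are given here only beside values of the old kidneys. Each library was made from total RNA of 10 to 20 mg of kidney tissue with a kit that reads the 3′ ends of polyadenylated transcripts, so a count stands for a transcript end and not for transcript length. Of 55487 genes in the deposited count table, 14683 had enough reads to be tested. Levels are given as counts per 1000000 counts of the TMM-scaled library total (CPM), with the standard deviation (SD) over kidneys, and differences as log2 fold changes of NAM-fed over old kidneys with a standard error (SE) from the edgeR quasi-likelihood fit. The text uses "higher", "lower", "rose" or "fell" for an effect of NAM only where the Benjamini-Hochberg adjusted p over all genes tested lay below 0.05.

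Nicotinamide is the amide form of vitamin B3. Cells turn it into nicotinamide mononucleotide with Nampt and then into NAD, the coenzyme of redox reactions and the substrate of the sirtuins and of the poly(ADP-ribose) polymerases, which release nicotinamide again. The methyltransferase Nnmt removes nicotinamide from this cycle by methylating it with S-adenosylmethionine. The kidney tubule is rich in mitochondria and also makes NAD from tryptophan, and the title of the series places Nnmt in the setting of tubular senescence and fibrosis.

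The libraries had the defining transcripts of kidney. Kap, an androgen-dependent transcript of the proximal tubule, was at 15960 ± 1943 CPM (SD, n = 8) in old and 17713 ± 4354 CPM (n = 8) in NAM-fed kidneys, and the phosphate transporter gene Slc34a1 at 2572 ± 307 and 2613 ± 557 CPM. Umod of the thick ascending limb, Slc12a3 of the distal tubule, Aqp2 of the collecting duct and Podxl of podocytes were read in every kidney, the last at 72.3 to 119 CPM in old and 83.3 to 109 CPM in NAM-fed kidneys. Libraries held 5443099 to 7519169 gene counts in old and 5663649 to 8319865 in NAM-fed kidneys. Reads in no annotated gene were 20.6% to 24.7% of the reads in old and 19.6% to 23.6% in NAM-fed kidneys. Reads that could belong to more than 1 gene were 0.519% to 0.538% in old and 0.532% to 0.569% in NAM-fed kidneys.

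In a principal component analysis of the 16 libraries, 3 kidneys were picked out as standing apart from the others of their group. Old replicate 7 and NAM replicate 1 lay together at one end of the first component (11.5% of the variance), at −44.3 and −46.4 against −7.61 to 40.0 for the other 14 kidneys. These kidneys had the lowest Kap of their groups (11696 and 7779 CPM) and the highest Aqp2 (662 and 793 CPM). NAM replicate 7 stood alone on the second component (9.69% of the variance), at 67.4, and had the highest level of T cell transcripts. NAM replicate 8 lay at the opposite end of the first component, at 40.0, but was not counted among the 3 and stayed in all fits without them. List medians that moved most without the 3 kidneys are given also without them. Old replicate 7 and NAM replicate 1 belong to different groups, so their shared pattern is not a difference between old and NAM-fed kidneys.

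NAM feeding moved few transcripts beyond the spread between kidneys. The test was passed by 4 of 14683 genes, 0.0272% of those tested. S100a11 and Arf3 rose (0.0136% of genes), and CT010467.1 and Gm38319 fell (0.0136%). At an unadjusted p below 0.05 there were 907 genes (6.18%), 431 of them above 0 (2.94%) and 476 below (3.24%). The median log2 fold change of all genes was 0.01, and 51.3% of genes lay above 0. Old against young kidneys, in the same fit and with the same 8 old kidneys, gave 1034 genes (7.04%), 572 of them higher in old kidneys (3.9%) and 462 lower (3.15%). DESeq2 on the same counts called 10 genes and limma-voom 6, and the edgeR calls were among them.

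**Figure D1:**
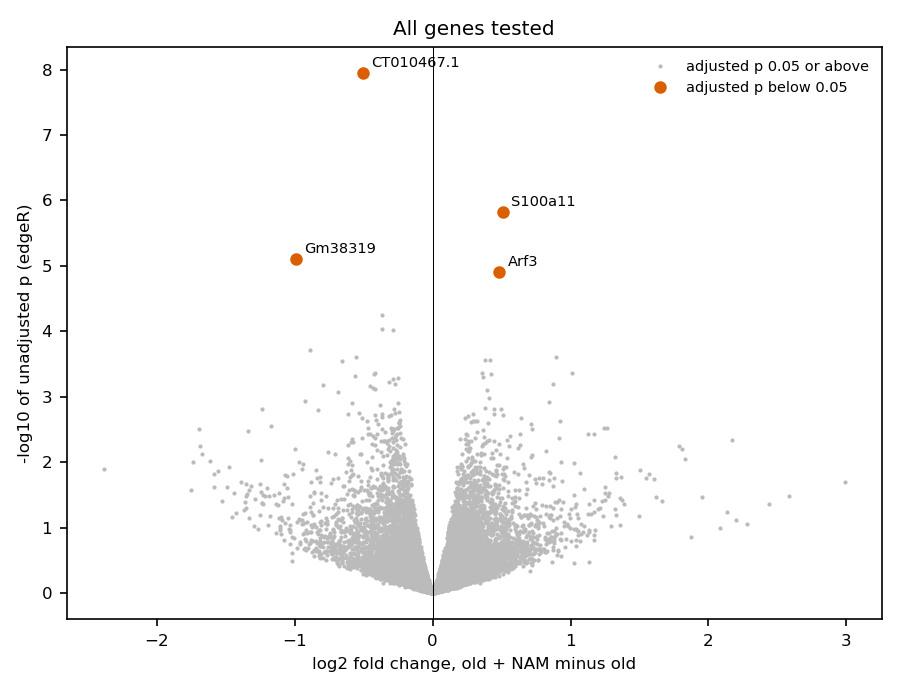
Log2 fold change of NAM-fed over old kidneys (x axis) against −log10 of the unadjusted edgeR p (y axis) for the 14683 genes tested; each point is a gene. Orange points are the 4 genes with an adjusted p below 0.05, and the other genes are grey.

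The precision of the fold changes depended on the level of the gene. The 95% interval of the log2 fold change reached a median of 0.93 to either side for 3755 genes below 5 CPM, 0.34 for 7982 genes at 5 to 50 CPM, 0.18 for 2818 genes at 50 to 500 CPM and 0.16 for 128 genes above 500 CPM. For 11628 genes (79.2%) the whole interval lay within a 2-fold change in either direction. A p that missed the threshold does not show that the groups were equal. The intervals are for 1 gene at a time and are not adjusted for the number of genes tested. An interval without 0 was therefore not enough to pass: Bak1, at 0.89 ± 0.22, did not (adjusted p = 0.324 in edgeR). The intervals do not give the smallest change that the test could find.

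The gene of lowest p was CT010467.1, which the annotation classes as ribosomal RNA. Its level was 46444, 50943 and 61391 CPM (lowest, median and highest) in old kidneys and 32214, 36350 and 42999 CPM in NAM-fed kidneys. Every NAM-fed kidney lay below every old kidney. CT010467.1 fell by 0.51 ± 0.07 (SE) on the log2 scale, a level 1.42-fold lower (adjusted p = 0.000166). The young mean lay between, at 45565 CPM, while the young kidneys, at 42641 to 49115 CPM, overlapped the range of both groups. Old against young differed by 0.19 (adjusted p = 0.14). The gene remained past the threshold in all 16 fits that left out 1 kidney each, with adjusted p of 7.77e-06 to 0.00198. It is a single abundant entry: ribosomal RNA genes took 5.22% ± 0.648 (SD) of gene counts in old, 3.74% ± 0.457 in NAM-fed and 4.39% ± 0.199 in young kidneys. The other 5 ribosomal RNA genes tested had unadjusted p of 0.388 to 0.98. The kit reads polyadenylated ends, and whether the count of a ribosomal RNA follows its level in the tissue was not tested. A difference in the tissue cannot be told apart here from one in the making of the libraries.

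Mitochondrial ribosomal RNA had values on the same side without passing the edgeR test. The large subunit RNA mt-Rnr2 was at 71097, 76312 and 88667 CPM in old and at 53369, 65952 and 71532 CPM in NAM-fed kidneys, and only the highest NAM-fed kidney overlapped the old group. The log2 fold change of mt-Rnr2 was −0.29 ± 0.07 (adjusted p = 0.197 in edgeR, 0.00462 in DESeq2 and 0.00559 in limma-voom). The small subunit RNA mt-Rnr1 was at 35627 ± 2364 CPM in old and 29942 ± 2918 CPM in NAM-fed kidneys (−0.25 ± 0.07, adjusted p = 0.355 in edgeR, 0.0461 in DESeq2 and 0.0402 in limma-voom). Both mitochondrial ribosomal RNAs together took 10.8% to 12.5% of gene counts in old and 7.63% to 10.9% in NAM-fed kidneys. Of the 9 mitochondrially encoded genes tested, 4 lay above and 5 below 0, with a median of −0.06. Among protein-coding mitochondrial transcripts, mt-Co1, a subunit of cytochrome c oxidase, had a value of −0.20 ± 0.07 (adjusted p = 0.542). With the ribosomal RNA genes removed before scaling, S100a11 passed (adjusted p = 0.0247) while Arf3 (0.0657) and Gm38319 (0.0568) did not, at log2 fold changes of 0.48 and −0.99 that were the same to 2 decimals as with these genes kept.

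S100a11 codes for a small calcium-binding protein of the S100 family and was also a member of the list of tubular injury genes. Old kidneys had 109, 127 and 181 CPM (lowest, median, highest) and NAM-fed kidneys 139, 186 and 222 CPM. All 8 NAM-fed kidneys lay above the old mean of 133 CPM, and 5 of them above the highest old kidney, which was old replicate 7 at 181 CPM; the next highest old kidney had 136 CPM. S100a11 rose 1.42-fold with NAM, by 0.51 ± 0.09 on the log2 scale (adjusted p = 0.0110). Young kidneys had 77.7 to 102 CPM, and old kidneys were above them by 0.59 (adjusted p = 0.00019 in the contrast of old with young, which shares the old kidneys). NAM-fed kidneys stood farther from young kidneys in S100a11 than old kidneys did. The call held in 13 of 16 fits without 1 kidney and was lost without old replicate 1, old replicate 6 or NAM replicate 6, with adjusted p up to 0.0671. Without the 3 kidneys that stood apart the rise was 0.57 (adjusted p = 0.00031).

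Arf3, a small GTPase of the ADP-ribosylation factor family that acts in membrane traffic, rose 1.4-fold. Its level was 36.3, 44.4 and 52.0 CPM in old kidneys and 52.7, 61.1 and 71.3 CPM in NAM-fed kidneys, so the groups did not overlap. The change was 0.48 ± 0.10 on the log2 scale (adjusted p = 0.0458). Young kidneys spread over 38.3 to 62.5 CPM, across both old groups. The call rested on the full set of kidneys: it was lost in 13 of 16 fits that left out 1 kidney (adjusted p up to 0.188), while the fold change stayed between 0.45 and 0.52.

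Gm38319 fell by 0.99 ± 0.20 on the log2 scale, to a level 1.99-fold lower (adjusted p = 0.0391). Old kidneys had 12.8, 17.3 and 29.3 CPM and NAM-fed kidneys 3.62, 9.60 and 13.2 CPM, and 7 of 8 NAM-fed kidneys lay below every old kidney. Young kidneys had 15.4 to 23 CPM. Gm38319 is a provisional transcript model in the annotation that overlaps Lactb2, an endoribonuclease gene, on the same strand, so reads of the pair may not have been told apart in counting. Lactb2 itself was at 246 ± 24.9 CPM in old and 240 ± 37.9 CPM in NAM-fed kidneys (−0.04 ± 0.08, adjusted p = 0.975). The call of Gm38319 was lost in 10 of 16 fits without 1 kidney, with adjusted p up to 0.168. It was also lost in a fit of only the 16 libraries (−0.99, adjusted p = 0.154 by edgeR). With the share of reads in no annotated gene added as a covariate to that fit, the value was −0.75 (adjusted p = 0.506).

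**Figure D2:**
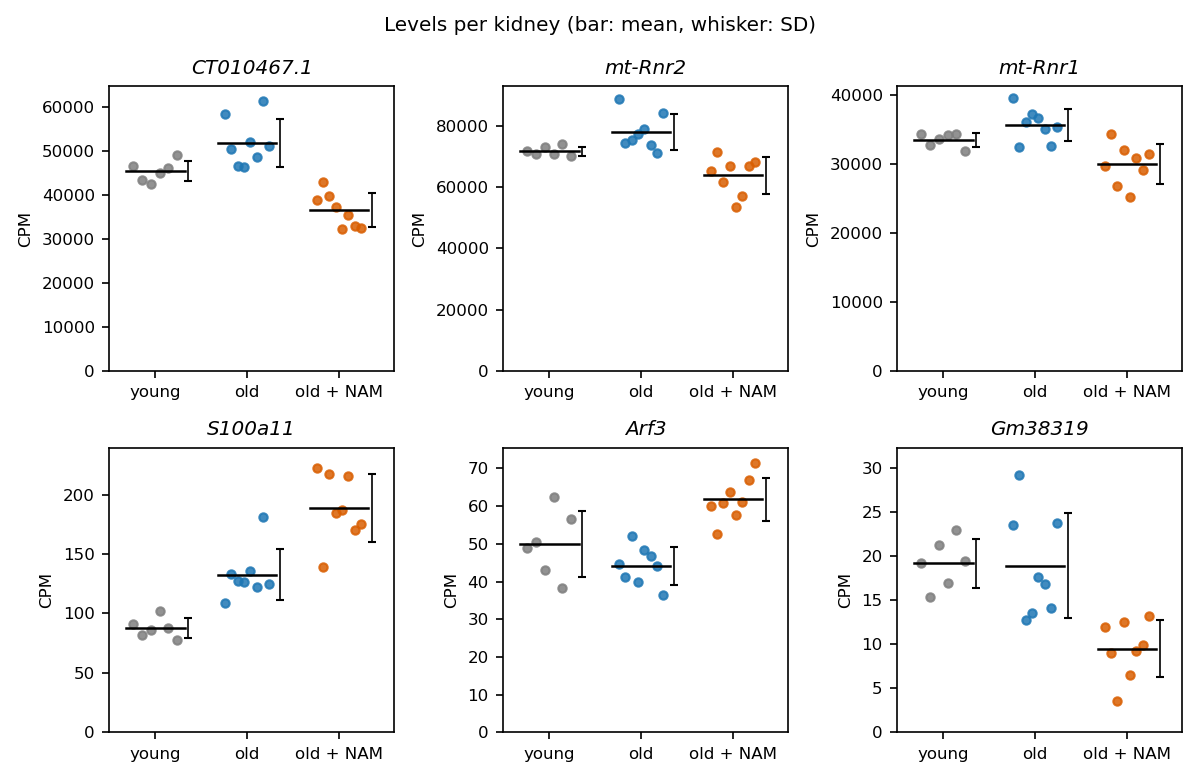
Level in CPM (y axis, from 0) of the 4 genes that passed the test and of both mitochondrial ribosomal RNAs in young (grey, n = 6), old (blue, n = 8) and NAM-fed old kidneys (orange, n = 8). Each point is a kidney, the bar is the mean and the whisker the SD. For CT010467.1 and Arf3 no NAM-fed kidney falls within the range of the old kidneys.

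Groups without overlap were found for 4 genes, 0.0272% of those tested: CT010467.1 and Arf3, and 2 that did not pass the test, named after their values were seen. With 8 against 8 kidneys, a gene without a group difference separates in either direction with an exact probability of 0.000155. Among 14683 genes some would do so without any effect, and the count of 4 was not tested against that. Sult1d1, a cytosolic sulfotransferase, was at 373 to 413 CPM in old and 288 to 369 CPM in NAM-fed kidneys (−0.25 ± 0.07, adjusted p = 0.510). The homeobox gene Hoxb2 was at 6.72 to 11.7 CPM in old and 12 to 16.7 CPM in NAM-fed kidneys (0.41 ± 0.17, adjusted p = 0.690).

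The 20 genes next in order of p, 10 in each direction, had adjusted p of 0.168 to 0.472 and log2 fold changes of −0.89 to 1.01. In each of them 7 or 8 of 8 NAM-fed kidneys lay on the same side of the old mean, which largely follows from choosing them by p in these same kidneys. None passed the edgeR test, and their values are given as a description. Below 0, Itga6, the laminin-binding integrin α6 of epithelial basement membranes, had 93.6, 120 and 130 CPM in old and 80.9, 87.2 and 116 CPM in NAM-fed kidneys (−0.37 ± 0.08, adjusted p = 0.168). Zfp106, an RNA-binding zinc finger protein, was at 189 ± 22.5 CPM in old and 147 ± 22.3 CPM in NAM-fed kidneys (−0.36 ± 0.08, adjusted p = 0.197). Both passed in DESeq2 (adjusted p = 0.0254 and 0.0497) and in edgeR without the 3 kidneys that stood apart (0.0192 and 0.0175), but not in limma-voom. That edgeR fit was added after the data were seen and leaves out NAM replicate 1, the highest NAM-fed kidney for Itga6 at 116 CPM. Of 28 alternatives, Itga6 passed in 4 and Zfp106 in 5. Ppp1r13b, which codes for a p53-binding protein that promotes apoptosis, was at 9.36 ± 2.47 and 5.05 ± 1.19 CPM (−0.89 ± 0.22). Dpys, the dihydropyrimidinase of pyrimidine breakdown and a marker of the early proximal tubule, was at 21.5 ± 4.01 and 13.6 ± 2.76 CPM (−0.66 ± 0.17). Car2, the cytosolic carbonic anhydrase of acid-base transport, had 152, 167 and 201 CPM in old and 130, 141 and 161 CPM in NAM-fed kidneys (−0.29 ± 0.08, adjusted p = 0.355). The phosphatase gene Cpped1 (−0.32 ± 0.09) and Phf12 of a histone deacetylase complex (−0.43 ± 0.11) were of similar size. Vcp-rs is a processed pseudogene of Vcp whose reads can be confused with those of its parent: it had a value of −0.55 ± 0.14 (adjusted p = 0.324), while Vcp, an ATPase of protein quality control, was at 197 ± 14.2 and 204 ± 33.1 CPM (0.05 ± 0.08).

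Above 0 among these 20 genes, Bak1, a pore-forming protein of mitochondrial apoptosis, had 3.70, 4.73 and 8.33 CPM in old and 7.53, 9.85 and 12.7 CPM in NAM-fed kidneys (0.89 ± 0.22, adjusted p = 0.324 in edgeR and 0.0467 in DESeq2). Lsr, a lipoprotein receptor that also sits at tricellular junctions of epithelia, was at 44.4 ± 4.49 and 57.8 ± 5.06 CPM, and 7 of 8 NAM-fed kidneys exceeded every old kidney (0.38 ± 0.10, adjusted p = 0.324). Nr1d1, the clock repressor REV-ERBα, was at 47.9 ± 9.79 and 63.6 ± 9.74 CPM (0.41 ± 0.12, adjusted p = 0.472). Slc35e4, of a family of nucleotide-sugar transporters, had the value farthest from 0 (1.01 ± 0.27, from 3.87 ± 0.938 CPM in old). The rest were the kinetochore gene Zwint (0.42 ± 0.10), the transcription factor Klf13 (0.36 ± 0.09), the ARF-like GTPase gene Arl4a (0.42 ± 0.11), the Cdc42 effector Cdc42se1 (0.37 ± 0.10), the p53-induced gene Trp53i11 (0.87 ± 0.24) and Pgm1, a phosphoglucomutase (0.39 ± 0.11). For 2 of these, old kidneys had also differed from young, with Zwint at 47.2 ± 5.93 CPM in young, 35.2 ± 5.62 in old and 47.0 ± 5.13 in NAM-fed kidneys. Pgm1 was at 58.2 ± 10.3, 41.7 ± 6.86 and 54.7 ± 6.76 CPM in the same order (old against young: adjusted p = 0.017 for Zwint and 0.0070 for Pgm1). Below 0 among the 20 genes, Phf12 and Car2 had also differed between old and young (adjusted p = 0.0159 and 0.0469 in edgeR). Phf12 had means of 55.1, 75.5 and 56.2 CPM in young, old and NAM-fed kidneys. Car2 had means of 206, 172 and 141 CPM in the same order. The NAM-fed mean of Car2 lay farther from the young mean than its old mean did. The old kidneys enter both contrasts of these genes, so the levels are side by side only.

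The genes that handle nicotinamide and NAD had values close to 0. Nnmt lay below the count filter, with 4 to 14 reads per old kidney and 3 to 12 per NAM-fed kidney. Its level was 1.2 ± 0.618 CPM in old and 1.07 ± 0.496 CPM in NAM-fed kidneys, a difference of −0.132 CPM (exact two-sided permutation p = 0.657, adjusted over 2 genes 0.657). Without old replicate 6 the difference was 0.0541 CPM. In young kidneys Nnmt had 0 to 6 reads, and 3 of the 6 had none. Among the 24 genes of the list for NAD synthesis, 19 were tested and 0 passed. Their median log2 fold change was 0.09, with 15 above 0, against 0.01 for all genes. The median was −0.01 with the share of reads in no annotated gene as a covariate. Nampt, the rate-limiting enzyme of salvage from nicotinamide, had 85.7, 103 and 132 CPM in old and 79.0, 96.7 and 126 CPM in NAM-fed kidneys (−0.08 ± 0.09). Acmsd, whose product diverts the tryptophan route away from NAD, was at 117 ± 16.6 and 98.2 ± 21.0 CPM (−0.25 ± 0.12, adjusted p = 0.782). Qprt, which carries the same route on to NAD, was at 46.8 ± 6.32 and 52.7 ± 7.70 CPM (0.17 ± 0.11). The NAD kinases Nadk and Nadk2, which form NADP, were at 73.9 ± 7.67 and 75.1 ± 7.86 CPM and at 13.0 ± 2.02 and 13.6 ± 3.36 CPM. Both were below young in old kidneys (log2 −0.37, adjusted p = 0.0064, and −0.60, adjusted p = 0.021), and the NAM-fed values were 0.02 ± 0.08 and 0.06 ± 0.16 from old.

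Consumers of NAD and enzymes that clear nicotinamide had a median of −0.06 over 24 tested members, 10 above 0, and 0 passed. The ectonucleotidase gene Nt5e, whose product acts on extracellular nucleotides including nicotinamide mononucleotide, was at 50.5 ± 9.79 and 41.5 ± 8.52 CPM (−0.29 ± 0.12, adjusted p = 0.719). The polymerase family member Parp4 was at 16.3 ± 2.32 and 20.4 ± 4.07 CPM (0.33 ± 0.14, adjusted p = 0.727). Parp1, Sirt1 and Sirt3 had values of 0.04 ± 0.11, −0.15 ± 0.16 and 0.09 ± 0.11. Methionine and one-carbon genes, which supply and recycle the methyl donor that Nnmt uses, had a median of 0.03 over 27 tested members and 0 passed. In that list Ahcyl2 was at 179 ± 14.0 and 146 ± 31.2 CPM (−0.29 ± 0.09, adjusted p = 0.537), and Gatm, the first enzyme of creatine synthesis, at 309 ± 53.2 and 246 ± 65.8 CPM (−0.33 ± 0.17).

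**Figure D3:**
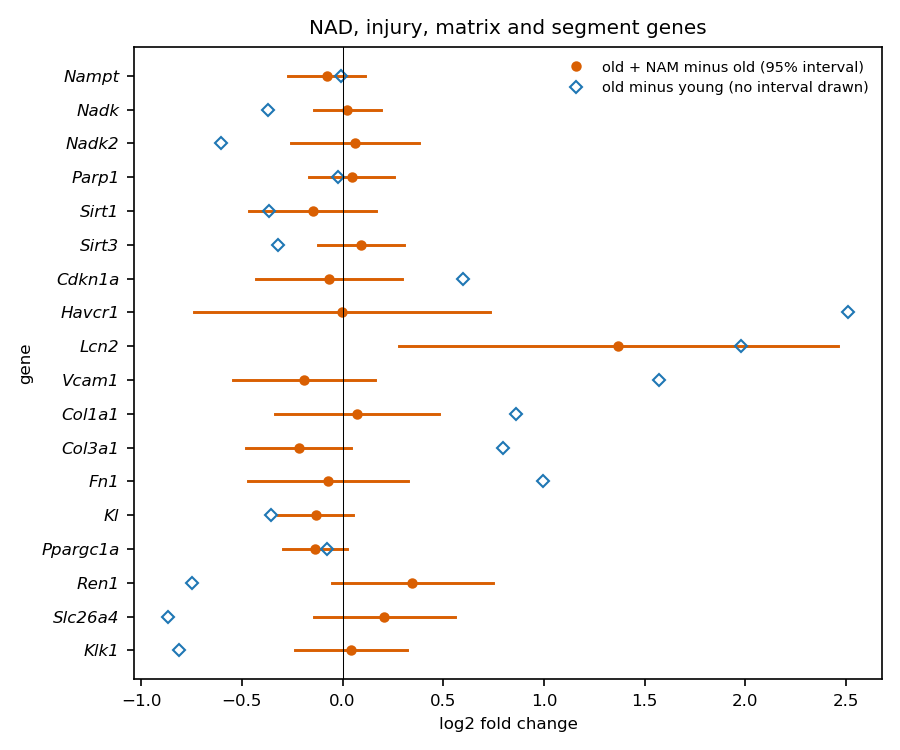
Log2 fold change (x axis) of 18 genes of NAD metabolism, senescence, injury, matrix and nephron segments. Orange points are NAM-fed over old kidneys with the 95% interval of the edgeR fit, and open blue diamonds are old over young kidneys. Each orange interval except that of Lcn2 includes 0, and the diamonds of the injury and matrix genes Havcr1, Vcam1, Col1a1, Col3a1 and Fn1 lie to the right of 0 while those of Nadk, Nadk2, Kl, Ren1, Slc26a4 and Klk1 lie to the left.

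The lists of senescence, fibrosis and tubular injury genes had medians of 0.05, −0.00 and 0.01, and S100a11 was the only member that passed. The senescence list had 31 tested members with a median of 0.05 and 0 passed, although 3 had an unadjusted p below 0.05 above 0. Cdkn2a, the gene of p16, had at most 7 reads in an old and 6 in a NAM-fed kidney, at 0.447 ± 0.347 and 0.274 ± 0.366 CPM (exact two-sided permutation p = 0.343, adjusted over 2 genes 0.657). Cdkn1a, the gene of p21, had 50.9, 54.7 and 79.2 CPM in old and 35.7, 51.1 and 93.4 CPM in NAM-fed kidneys (−0.07 ± 0.18). The chemokine gene Cxcl10 was at 4.29 ± 1.21 and 8.09 ± 5.92 CPM (0.91 ± 0.30, adjusted p = 0.537), and its highest kidney, at 22.2 CPM, was NAM replicate 7, without which the value was 0.50. The chemokine gene Ccl5 is described with the T cell transcripts.

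Of the 40 fibrosis and matrix genes, all tested, 0 passed, with a median of −0.00 and 19 above 0. Col1a1 and Col3a1, the main fibrillar collagens, were at 44.0 ± 18 and 46.5 ± 6.50 CPM (0.07 ± 0.20) and at 40.9 ± 5.84 and 35.1 ± 8.14 CPM (−0.22 ± 0.13, adjusted p = 0.846). Fibronectin (Fn1) was at 16.9 ± 5.70 and 16.1 ± 4.04 CPM. In young kidneys Col3a1 had been at 23.4 ± 6.07 CPM and Fn1 at 8.36 ± 3.00 CPM. The members of lowest p were Timp3, an inhibitor of metalloproteases, at 2463 ± 236 and 2172 ± 248 CPM (−0.18 ± 0.07, adjusted p = 0.701), and the matricellular gene Ccn1, at 39.5 ± 14.8 and 26.6 ± 8.56 CPM (−0.57 ± 0.24, adjusted p = 0.727). In the same list, 19 genes had passed above 0 and 1 below in old against young (3.9% and 3.15% of all genes).

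Of 30 tested tubular injury and repair genes, S100a11 rose and none fell, with a median of 0.01 over the list. Havcr1, the injury marker KIM-1, had 4.41, 8.92 and 17.9 CPM in old and 3.24, 9.21 and 16.7 CPM in NAM-fed kidneys, against 0.473 to 4.80 CPM in young kidneys (NAM against old −0.00 ± 0.36). Vcam1, an adhesion molecule of injured tubules and endothelium, was at 40.9 ± 12.8 and 35.8 ± 8.86 CPM (−0.19 ± 0.17, adjusted p = 0.916) and at 13.8 ± 3.88 CPM in young. Lcn2, the injury marker NGAL, was at 12.3 ± 4.98 and 31.5 ± 41.6 CPM (1.37 ± 0.52, adjusted p = 0.690). Its mean rested on NAM replicate 1 at 133 CPM, while the other 7 NAM-fed kidneys had 10.4 to 27.2 CPM. Without the 3 kidneys that stood apart the value was 0.49 (adjusted p = 0.77).

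Markers of the nephron segments had medians close to that of all genes. In whole tissue a lower level can mean fewer cells of a type or less RNA per cell, and these cannot be told apart. The medians were −0.03 for 24 genes of proximal tubule segments S1 and S2, 0.03 for 17 of segment S3, 0.01 for 17 of the loop of Henle, −0.00 for 18 of the distal and connecting tubule, 0.08 for 17 of principal cells and 0.06 for 19 of intercalated cells. No member of these lists passed. In the proximal tubule lists the members of lowest p, beside Dpys, were the sodium bicarbonate cotransporter gene Slc4a4 (1687 ± 170 and 1491 ± 186 CPM, −0.18 ± 0.08), the glucose transporter gene Slc5a1 (56.9 ± 9.14 and 49.3 ± 5.2 CPM, −0.21 ± 0.10) and the amino acid transporter gene Slc7a12 (−0.68 ± 0.39). Slc7a12 had its highest NAM-fed kidney, 34.4 CPM, in NAM replicate 1, and the others had up to 12.2 CPM. In the loop of Henle list, Tmem207 was at −0.48 ± 0.36.

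In the distal nephron Kl, the gene of klotho, was at 315 ± 33.5 CPM in young, 247 ± 25.5 in old and 225 ± 42.9 in NAM-fed kidneys (NAM against old −0.13 ± 0.09, adjusted p = 0.883). Klk1, tissue kallikrein, was at 334 ± 54.5 and 344 ± 82.2 CPM in the old groups (0.04 ± 0.13) and at 587 ± 88.7 CPM in young. Slc26a4, the chloride-bicarbonate exchanger pendrin of type B intercalated cells, was at 27.2 ± 7.75, 14.9 ± 3.15 and 17.2 ± 5.05 CPM in young, old and NAM-fed kidneys (0.21 ± 0.17, adjusted p = 0.908). Old kidneys were below young for each of these genes, and each NAM-fed mean lay within 1 SD of the old mean. The values of lowest p among the remaining lists were Pvalb of the early distal tubule (−0.42 ± 0.23), Scnn1b, a subunit of the epithelial sodium channel (0.23 ± 0.17), and Nr3c2, the mineralocorticoid receptor (0.48 ± 0.35).

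Podocyte genes had a median of −0.11 over 17 members, 11 of them below 0, and 0 passed (median −0.05 without old replicate 2). Magi2, a scaffold of the slit diaphragm, was at 43.4 ± 4.33 and 32.5 ± 7.49 CPM, with 7 of 8 NAM-fed kidneys below the old mean (−0.42 ± 0.11, adjusted p = 0.383), and Npnt, a basement membrane ligand, had a value of −0.22 ± 0.14. Mural and juxtaglomerular genes had a median of −0.08, with 12 of 17 below 0, and 0.03 without the 3 kidneys that stood apart. Rgs5, a pericyte marker, was at 55.7 ± 6.32 CPM in young, 89.4 ± 12.8 in old and 72.7 ± 10.3 in NAM-fed kidneys (−0.30 ± 0.10, adjusted p = 0.535). Serpine2, a secreted protease inhibitor, was at 37.0 ± 5.08, 83.0 ± 9.82 and 67.2 ± 16 CPM in the same order (−0.30 ± 0.11, adjusted p = 0.643). Ren1, renin, was at 60.2 ± 16.7, 35.9 ± 10.8 and 45.7 ± 13.1 CPM (0.35 ± 0.19, adjusted p = 0.832). For these 3 genes the mean of NAM-fed kidneys lay between young and old. The NAM contrasts did not pass, and the old against young contrasts, which share the old kidneys, did. Endothelial genes had a median of 0.03 over 22 members, with Pecam1 at 0.24 ± 0.11 and Ly6c1 at 0.25 ± 0.11 as those of lowest p.

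Transcripts of B and plasma cells had the lowest list median of the comparison, −0.89 against 0.01 for all genes. All 24 tested members lay below 0, at −2.39 to −0.02, 6 of them with an unadjusted p below 0.05, and 0 passed the test. Members below the count filter went both ways: Cd79a had 7 reads over the old and 14 over the NAM-fed kidneys, while Fcer2a had 39 and 8. The summed level of the list was 2317, 3331 and 5761 CPM (lowest, median, highest) in old, 845, 1772 and 4850 CPM in NAM-fed and 817 to 1777 CPM in young kidneys. NAM replicates 2 and 6 lay within the range of the old kidneys, and the other 6 NAM-fed kidneys lay below it. Igkc, the constant chain of κ light chains, made up much of the sum, at 2021 ± 668 CPM in old and 1112 ± 764 CPM in NAM-fed kidneys (−0.86 ± 0.37, adjusted p = 0.747). The heavy chain gene Ighg1 ranged from 0.896 to 94.9 CPM in old and from 0.150 to 28.4 CPM in NAM-fed kidneys (−2.39 ± 0.87, adjusted p = 0.682). Cr2, a complement receptor of B cells, was at 3.54 ± 1.4 and 1.74 ± 1.15 CPM (−1.02 ± 0.40, adjusted p = 0.687). Jchain, which joins immunoglobulin A and M chains and also stood in the intercalated cell list, was at 93.3 ± 36.2 and 43.9 ± 44.1 CPM (−1.08 ± 0.43, adjusted p = 0.709). Igha, the heavy chain of immunoglobulin A, was at 618 ± 508 and 307 ± 467 CPM (−1.01 ± 0.66), with its highest value in old replicate 1 and NAM replicate 2. Of the 29 members 15 were read in all 16 kidneys. The defining marker Ms4a1 was at 0 in 3 old and 1 NAM-fed kidney. Without the 3 kidneys that stood apart the median was −0.63, with 22 of 23 members below 0. These genes share their cells, so the count of members is not a count of independent observations.

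**Figure D4:**
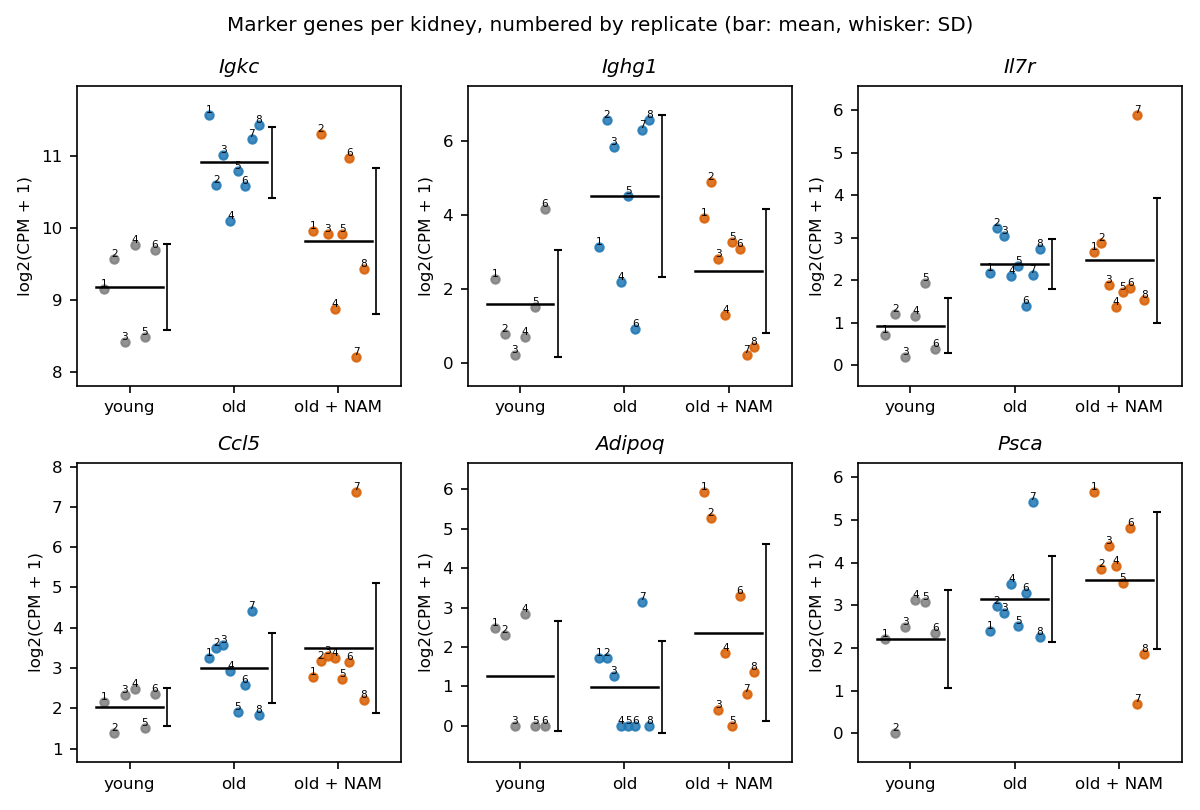
Level on the log2(CPM + 1) scale (y axis) of 2 immunoglobulin genes (Igkc, Ighg1), 2 T cell genes (Il7r, Ccl5), the adipocyte gene Adipoq and the urothelial gene Psca in young (grey), old (blue) and NAM-fed kidneys (orange). Each point is a kidney with its replicate number, the bar is the mean and the whisker the SD on that scale. NAM replicate 7 is far above the others for Il7r and Ccl5, and old replicate 7 and NAM replicate 1 are highest in their groups for Psca.

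T and natural killer cell transcripts turned on a single kidney. Their median was 0.61 over 19 tested members with all kidneys and −0.28 without NAM replicate 7. The summed level was 39.4, 64.5 and 91.8 CPM in old kidneys, and 38.0 to 71.5 CPM in 7 NAM-fed kidneys, against 524 CPM in NAM replicate 7. Ccl5 had 166 CPM in that kidney and 3.64 to 8.82 CPM in the other NAM-fed kidneys (log2 fold change 1.67 ± 0.75 with all kidneys, adjusted p = 0.776). Il7r, the interleukin-7 receptor of T cells, had 58.0 CPM there and 1.60 to 6.32 CPM in the others (1.12 ± 0.70). Of the list's 30 members 14 were read in all 16 kidneys. Cd3e, a subunit of the T cell receptor complex, was at 0 in 2 old kidneys.

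Interferon response genes also turned on that kidney. Their median was 0.14 over 41 tested members with all kidneys, 27 of them above 0. The median without NAM replicate 7 was −0.19, and without the 3 kidneys that stood apart −0.36, with 36 of 40 members below 0 and 12 with an unadjusted p below 0.05, all below 0. Over all genes of that last fit, which was added after the data were seen, 1108 of 14371 had such a p and 49.8% lay above 0. No member passed in either fit. Irf8, which directs myeloid and B cell development, was the member of lowest p, at 44.6, 77 and 92.6 CPM in old and 50.1, 55.1 and 67.8 CPM in NAM-fed kidneys (−0.37 ± 0.11, adjusted p = 0.523), and at 33.1 ± 5.42 CPM in young kidneys. MHC class I and immunoproteasome genes had a median of 0.15, and −0.09 without NAM replicate 7. In that list H2-Q6 was at 4.14 ± 1.59 and 5.97 ± 4.17 CPM and Tapbp, a chaperone of peptide loading, at 143 ± 22.6 and 164 ± 46.6 CPM. Reads of H2-Q6 may be shared with close copies in its gene family. MHC class II genes had a median of −0.08 over 9 members, with the master regulator Ciita at −0.40 ± 0.22 and H2-DMa at 0.34 ± 0.19.

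Macrophage and dendritic cell genes, of which 22 had passed above 0 in old against young (3.9% of all genes), had 0 that passed with NAM and a median of 0.12, 24 of 32 above 0. The median was 0.02 without NAM replicate 1, and 0.03 with 18 of 32 above 0 without the 3 kidneys that stood apart. The complement gene C1qb, a macrophage product, was at 16 ± 3.52 CPM in young, 46.0 ± 12.8 in old and 61.9 ± 20.8 in NAM-fed kidneys (0.43 ± 0.19, adjusted p = 0.776). Clec10a, a lectin of dendritic cells and macrophages, was at 5.83 ± 2.42 and 3.67 ± 2.62 CPM (−0.65 ± 0.37). The complement list had a median of 0.12 over 20 members (−0.04 without NAM replicate 1), and its member of lowest p, Cfd (adipsin), is also an adipocyte gene. Of 13 neutrophil genes 3 were tested, and S100a8 and S100a9 were at 0.68 ± 0.45 and 0.34 ± 0.56 with their highest values, 9.58 and 12.3 CPM, in NAM replicate 1. Without that kidney the value of S100a8 was 0.34 and that of S100a9 was −0.45.

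Transcripts of fat and urothelium varied widely between kidneys. Adipocyte genes had the highest list median, 1.06 over 16 tested members, 15 above 0 and 6 with an unadjusted p below 0.05, and 0 passed. The median was 0.56 without NAM replicate 1 and 1.29 without old replicate 7. Adipoq, the fat cell hormone adiponectin, was at 0 in 4 old and 1 NAM-fed kidney, at up to 7.80 CPM in old, and at 60.7 and 37.7 CPM in NAM replicates 1 and 2 (2.99 ± 1.18, adjusted p = 0.701). Cfd ranged from 0 to 45.3 CPM in old and from 0 to 244 CPM in NAM-fed kidneys (2.59 ± 1.12, adjusted p = 0.755). The lipase genes Pnpla2 (69.4 ± 10.7 and 89.2 ± 24.2 CPM, 0.36 ± 0.12) and Lipe (28.2 ± 4.80 and 44.5 ± 23.4 CPM, 0.66 ± 0.24) were the members of lowest p. Urothelial genes had a median of 0.35, which was −0.08 without NAM replicate 1 and 0.98 without old replicate 7. Psca, a surface protein of urothelium, was at 42.1 CPM in old replicate 7 and 49.8 CPM in NAM replicate 1, and from 3.81 to 10.4 CPM in the other old kidneys. Upk3b and Gsdmc2 were at 0.90 ± 0.77 and 0.74 ± 0.60. All 10 blood cell genes lay above 0, with a median of 0.31 that was −0.00 without the 3 kidneys that stood apart. Among them Hbb-bs, a β-globin, was at 619 ± 94.1 and 815 ± 437 CPM and Alas2, of haem synthesis in red cells, at 10.1 ± 2.73 and 13.6 ± 8.32 CPM. Of 12 adrenal genes 2 were tested, Star (0.05 ± 0.64) and Akr1b7 (0.03 ± 0.65), and 5 had no read in any of the 16 kidneys. The part of fat or urothelium in the values of other genes was not tested.

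Energy metabolism genes were measured closely and lay near 0. The 74 nuclear genes of oxidative phosphorylation had a median of 0.01, values from −0.33 to 0.22 and a median SE of 0.08, and 0 passed. In old against young 22 of them had passed below 0 (3.15% of all genes). The complex I subunit Ndufs1 was at 157 ± 14.3 and 136 ± 10.4 CPM, with all 8 NAM-fed kidneys below the old mean (−0.20 ± 0.08, adjusted p = 0.643), and Ndufv3 of the same complex at 217 ± 24.7 and 253 ± 45.9 CPM (0.22 ± 0.09, adjusted p = 0.704). Fatty acid oxidation genes had a median of 0.00 over 44 members, with the mitochondrial thiolase gene Acaa2 at −0.27 ± 0.12 and Cyp4a10, a fatty acid hydroxylase and target of PPARα, at −0.28 ± 0.14. Ppargc1a, the coactivator of mitochondrial biogenesis, was at 140 ± 14.6 and 127 ± 11.3 CPM (−0.14 ± 0.08, adjusted p = 0.833). It led its list of 26 genes by p, together with the matrix protease gene Lonp1 (0.16 ± 0.10), and the median there was −0.02.

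Glycolysis, gluconeogenesis and citric acid cycle genes had a median of 0.04 over 39 members. Pcx, pyruvate carboxylase, was at 155 ± 25.6 CPM in young, 115 ± 13.2 in old and 138 ± 19.7 in NAM-fed kidneys, with all 8 NAM-fed kidneys above the old mean (0.26 ± 0.09, adjusted p = 0.577). Hk2, a hexokinase that is scarce in healthy kidney, was at 2.71 ± 0.957 and 6.40 ± 5.26 CPM (1.24 ± 0.39, adjusted p = 0.535). Its highest NAM-fed kidney was NAM replicate 1, at 16.2 CPM, without which the value was 0.89. Sterol synthesis genes had a median of −0.07, 19 of 28 below 0, with Hsd17b7 at −0.29 ± 0.12 and Tm7sf2 at 0.69 ± 0.30. Cytochrome P450 and conjugating enzymes had a median of 0.05 over 38 members, where the glutathione transferase gene Gstm1 was at 439 ± 61.3 and 502 ± 67.7 CPM (0.19 ± 0.08) after Sult1d1. Organic ion transporters had a median of 0.01 over 32 members, with Slco4c1 at −0.38 ± 0.17 and Slc22a12, the urate transporter, at 0.20 ± 0.10. Androgen-dependent genes had a median of 0.12, which was 0.20 without the 3 kidneys that stood apart and −0.04 with the share of reads in no annotated gene as a covariate. Rnf24 was at −0.44 ± 0.20 and Hsd11b1, which regenerates active glucocorticoid, at 0.35 ± 0.16. Klotho, vitamin D and phosphate genes had a median of −0.01 over 16 members, with Rxra at 0.19 ± 0.10 and the phosphate transporter gene Slc34a3 at −0.36 ± 0.20.

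Among the stress response lists no member passed. Unfolded protein and integrated stress response genes had a median of −0.11, with 20 of 27 below 0, and 6 of them had an unadjusted p below 0.05 against 1 above 0. The median was −0.05 without NAM replicate 7. Dnajc3, a co-chaperone that restrains the stress kinases of translation, was at 236 ± 16.6 and 199 ± 25.0 CPM (−0.25 ± 0.08, adjusted p = 0.523). Pdia3, a disulfide isomerase of the endoplasmic reticulum, was at 375 ± 42.7 and 318 ± 24.9 CPM, with all 8 NAM-fed kidneys below the old mean (−0.24 ± 0.08, adjusted p = 0.535). Heat shock genes had a median of −0.10 (−0.02 without the 3 kidneys that stood apart), with Dnajb1 at −0.34 ± 0.17 and Hspa8 at −0.25 ± 0.15. Immediate early genes had a median of −0.13, 19 of 23 below 0 (−0.07 without NAM replicate 8). Egr1, a transcription factor induced within minutes of a stimulus, had 16, 25.6 and 86.5 CPM in old and 12.1, 16.4 and 26.7 CPM in NAM-fed kidneys (−0.95 ± 0.35, adjusted p = 0.682), and Myc was at −0.68 ± 0.47. Among NRF2 targets and antioxidants (median 0.05 over 31 members), Gclm, a subunit of the enzyme that starts glutathione synthesis, was at 261 ± 19.8 and 222 ± 21.9 CPM (−0.23 ± 0.07, adjusted p = 0.523), and Gsr, glutathione reductase, at 75.2 ± 4.58 and 88.5 ± 17.9 CPM (0.23 ± 0.10).

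**Figure D5:**
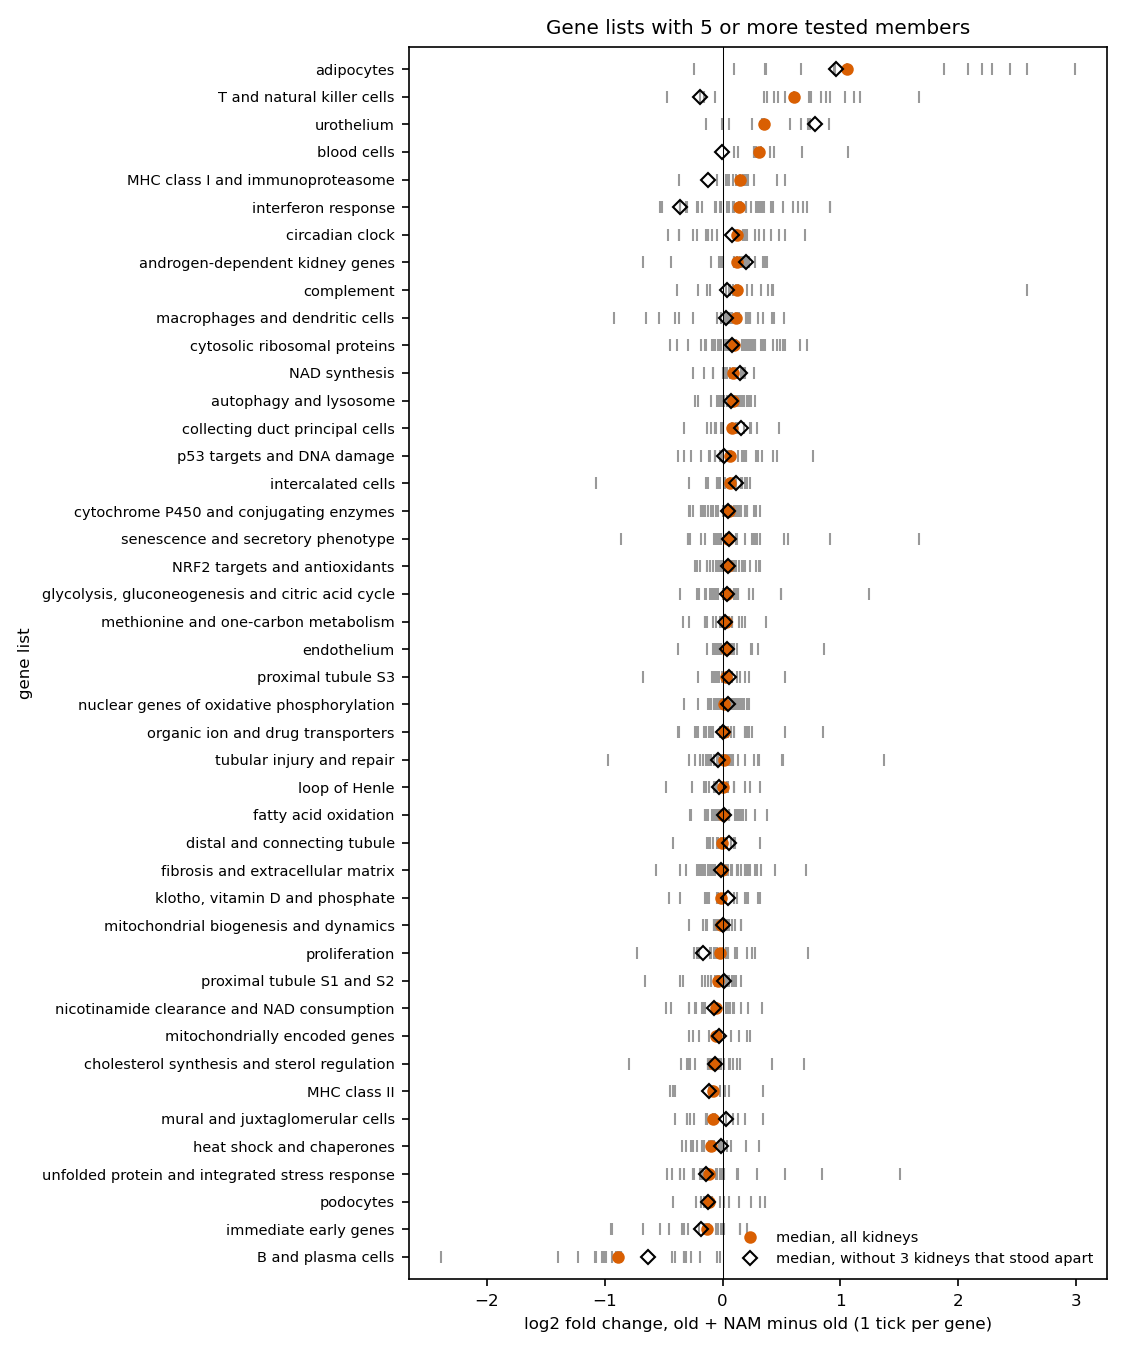
Log2 fold change of NAM-fed over old kidneys (x axis) for the gene lists with 5 or more tested members (y axis); each tick is a gene. Orange points are the list medians with all 16 kidneys, and open diamonds the medians without old replicate 7, NAM replicate 1 and NAM replicate 7. Without these kidneys the medians of T cell, interferon, MHC class I and blood cell genes cross 0. Several medians that lie close to 0 cross it as well, such as those of tubular injury and mural genes. Those of B and plasma cell and adipocyte genes keep their side.

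Ribosomal protein genes leaned above 0, with 57 of 70 tested members above 0 (81.4%, against 51.3% of all genes), a median of 0.10, and 7 with an unadjusted p below 0.05, all above 0. No member passed. Rplp1, an acidic protein of the ribosomal stalk, had 290, 301 and 319 CPM in old and 312, 349 and 403 CPM in NAM-fed kidneys, with 7 of 8 NAM-fed kidneys above every old kidney (0.20 ± 0.07, adjusted p = 0.537). Rpl35a was at 5.27 ± 1.60 and 8.69 ± 1.95 CPM (0.72 ± 0.23, adjusted p = 0.535). Ribosomal protein genes have processed pseudogenes that can take or lend reads. The median was 0.08 to 0.12 over the fits without 1 kidney. Autophagy and lysosome genes had a median of 0.09, with 23 of 33 above 0. Map1lc3a, an LC3 protein of the autophagosome membrane, was at 168 ± 11.5 CPM in young, 134 ± 8.69 in old and 155 ± 23 in NAM-fed kidneys (0.21 ± 0.08, adjusted p = 0.662), and its relative Gabarapl1 at 501 ± 33.5 and 569 ± 66.6 CPM (0.18 ± 0.07, adjusted p = 0.687).

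Clock, proliferation and p53 genes had members on both sides. The clock list had a median of 0.12 over 23 members (−0.04 in limma-voom with sample quality weights), and 4 above and 2 below 0 had an unadjusted p below 0.05. Beside Nr1d1, Clock, the activator that its product opposes, was at 65.4 ± 7.20 and 56.3 ± 4.36 CPM, with all 8 NAM-fed kidneys below the old mean (−0.21 ± 0.09, adjusted p = 0.704). The hour of tissue collection is not given in the sources used here. Proliferation genes had a median of −0.02, with Pcna, the sliding clamp of DNA replication, at 4.92 ± 2.14 and 8.15 ± 1.43 CPM (0.72 ± 0.26, adjusted p = 0.614) and the helicase subunit gene Mcm4 at 6.79 ± 1.97 and 4.10 ± 1.87 CPM (−0.72 ± 0.29, adjusted p = 0.690). p53 targets had a median of 0.06 over 27 members, with Trp53inp1 at 43.3 ± 5.81 and 34.6 ± 7.78 CPM (−0.32 ± 0.13, adjusted p = 0.688) and Bax, a relative of Bak1, at 0.43 ± 0.28.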

How the data were processed

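Kidney RNA of 22 mice was measured, and 16 libraries entered the contrast. The authors deposited raw read counts per gene, made with STAR and HTSeq per the submitters' processing notes. The sources used here do not give their versions, any removal of PCR copies or whether counting used strand. The notes name GRCh38, a human build, while the identifiers are of mouse, so no coordinates are given. Biotypes and overlaps of genes came from GENCODE M21. Symbols covered 55141 of 55487 identifiers. Entries for reads in no gene stayed out of library totals.

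Counts were tested in edgeR 4.0.16 (TMM, filterByExpr with minimum count 10 and total 15, robust quasi-likelihood fit of all 22 libraries without covariates, contrast NAM-fed minus old, two-sided). The SE was derived from each gene's fold change and F statistic. The fit was tested on simulated data. Nnmt and Cdkn2a, which lay below the filter, had an exact permutation test of CPM, and the other genes below it had no test in the main analysis. DESeq2 1.42.0, limma 3.58.1, other scalings and filters, a replicate block and each kidney left out were the alternatives. The edgeR intervals and p-values rest on the spread between animals, estimated over all 22 libraries with the 6 young ones included and partly shared across genes.

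Named genes were all that passed, the next by p up to 12 in each direction with an official symbol, both members of lowest p and the most variable markers of each list described, and 21 fixed genes. A few genes that this rule names are not reported here. Vcp, Lactb2, Sult1d1, Hoxb2, mt-Co1, Adipoq and the ribosomal RNA genes were named after their values were seen. The members and all 46 lists (1199 genes, 1083 tested) were chosen with earlier results of these data known, and no list was tested as a set.

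Replicates of equal number were not treated as pairs in the main fit. In 8 pairs of equal number the correlation of deviations from the group means was −0.0677 to 0.0531. The labels do not state whether equal numbers mark a shared litter, cage or day, and this correlation cannot settle it. Counting error did not account for the differences within groups in any of 56 library pairs (chi-square statistic per degree of freedom, 5.50 to 39.4).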

Additional observations from a re-analysis of the deposited data

Results flagged for a closer look

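In groups of 8 kidneys, the highest or lowest kidney stood far from the rest for 41 of 286 groups of values examined (14.3%), where chance gives about 1 in 20. Most of these values came from the 3 kidneys that stood apart. The groups are not independent, since genes of a cell type share their kidneys, and some genes were named for their wide range, so this share cannot be set against that of chance.

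NAM replicate 1 was the highest of its group for Lcn2 (133 CPM), Cfd (244 CPM), Aqp2 (793 CPM), Col3a1 (54.5 CPM), Itga6 (116 CPM), Slc7a12 (34.4 CPM), S100a8 (9.58 CPM) and S100a9 (12.3 CPM). The same kidney was the lowest for Kap (7779 CPM), Slc34a1 (1362 CPM), Lactb2 (158 CPM), Pgm1 (39.5 CPM) and Acsm1 (39.4 CPM), an enzyme that joins coenzyme A to medium-chain fatty acids. Old replicate 7 was the highest old kidney for Aqp2 (662 CPM), Cfd (45.3 CPM), Adipoq (7.80 CPM), Psca (42.1 CPM), Upk3b (11.3 CPM), Pnpla2 (94.9 CPM), Mcm4 (11.2 CPM), H2-Q6 (7.65 CPM) and S100a11 (181 CPM), and the lowest for Kap (11696 CPM). NAM replicate 7 was the highest for Ccl5 (166 CPM), Il7r (58.0 CPM), Cxcl10 (22.2 CPM), Ly6c1 (114 CPM) and H2-Q6 (16.1 CPM).

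Among the remaining kidneys, old replicate 1 was highest for Igha (1698 CPM), Jchain (174 CPM) and Ren1 (58.3 CPM), old replicate 2 for Egr1 (86.5 CPM) and Vcam1 (70.7 CPM), and old replicate 3 for Dpys (29.8 CPM) and Klk1 (451 CPM). NAM replicate 2 was highest for Igha (1442 CPM) and Jchain (148 CPM), lowest for Lsr (47.0 CPM), and had the largest library, with 8319865 gene counts. NAM replicate 3 was highest for Akr1b7 (4.25 CPM) and NAM replicate 8 for Hoxb2 (16.7 CPM).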

How the results depend on the processing

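The fit called 2 genes higher and 2 lower. Both counts were also 2 with DESeq2 size factors, upper-quartile factors and a stricter filter. The lower count was 7 in DESeq2 (3 higher), 4 in limma-voom, 6 with sample quality weights, 5 without a filter and 1 with only the 16 libraries. Leaving out 1 kidney at a time gave 0 to 3 higher and 1 to 6 lower, with the most in both directions without NAM replicate 1, and 0 higher without old replicate 1, old replicate 6 or NAM replicate 6. With a replicate block 0 were called higher and 0 lower, with 849 genes at an unadjusted p below 0.05 and adjusted p of 0.134 (CT010467.1, Gm38319) and 0.169 (S100a11, Arf3), and sign flips of the pairs gave exact p = 0.758 for Nnmt and 0.414 for Cdkn2a. Of 16 libraries, 2 correlated best with their own number. Added after seeing the data were 3 alternatives. Leaving out the 3 kidneys that stood apart gave 2 higher and 7 lower. Without ribosomal RNA genes 1 was higher and 0 lower (911 at an unadjusted p below 0.05). In only the 16 libraries, with the share of reads in no annotated gene as covariate, 0 were higher and 1 lower, against 2 and 1 in those libraries without it (895 at an unadjusted p below 0.05). The cause of these shifts was not tested. No result changed sign while past the threshold. Below 5 CPM the unadjusted intervals reached a median of 0.93 on the log2 scale to either side, near a 2-fold change. The adjusted test asked for more than an interval without 0. The smallest change that could be found at this depth was not determined.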
